A study of Mus musculus with 74 samples.

Results

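Both groups of control mice in a study of the transcriptional repressor BCL6 in mouse quadriceps were set against each other by poly(A) RNA sequencing. The comparison held 8 of the 74 samples of the series, chosen by their labels. The first group was 4 libraries of Cre-negative tamoxifen muscle (Bcl6 fl/fl mice given TMX, numbers P1898, P1899, P1906 and P1909). The second was 4 libraries of mice given Oil that carry AEC-Esr Cre (+) on the same Bcl6 fl/fl background (Cre-positive oil, numbers P1897, P1904, P1905 and P1910). In the study both groups serve as controls of the same 5 knockout libraries, from mice that have the Cre and the floxed alleles and were given TMX. All 13 libraries are from C57BL/6 mice, and all these mice carry both copies of the floxed Bcl6 gene. The labels give no age, sex, batch, dose or time, and they do not name the promoter that drives Cre. The RNA came from whole quadriceps, so fewer cells of a type and less RNA per cell cannot be told apart. Each library has a number of its own, but the labels do not say whether these numbers are separate animals, so p-values measure the spread between these samples.

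An inducible Cre of this kind is the bacteriophage recombinase joined to the ligand-binding part of an estrogen receptor. It stays outside the nucleus until tamoxifen binds it, and it then cuts DNA between loxP sites. Tamoxifen is itself a ligand of estrogen receptors and acts as an antagonist in some tissues and as an agonist in others. A Cre-negative mouse given tamoxifen therefore has the drug without the transgene, and a Cre-positive mouse given oil has the transgene without the drug. Between these 2 groups the drug and the transgene change together, so their parts cannot be told apart. The knockouts have both, and they lack BCL6 function as well.

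The controls stand in 2 deposited tables of log2 values that were transformed separately, and the same 5 knockout libraries stand in both. Each control value was taken as its difference from the mean of the 5 knockout libraries of its own table, and the gene's knockout mean over both tables was added back. These are called bridged log2 values below. Library totals were 6.70 to 7.35 M tags in Cre-negative tamoxifen muscle and 6.96 to 7.62 M tags in Cre-positive oil muscle (exact two-sided permutation p = 0.257, with 0.0286 the smallest p that 70 splits allow). The knockout values of a gene were shifted between tables by a median of -0.02 on the log2 scale, and for the central 95% of genes by -0.10 to 0.056. Among genes named below, the shift was 0.35 for Flrt1 and -0.19 for Esr1, outside this range. The deviations of the 5 knockout libraries from their mean correlated within genes between the tables (median 0.99993), but they were larger in the oil table, with a median slope of 1.12. A second bridge, chosen after this was seen, multiplied each gene's differences in the Cre-negative table by that gene's slope. It is called the rescaled bridge, and both counts are given. Y-linked Ddx3y averaged 9.96 ± 0.021 in Cre-negative tamoxifen muscle and 9.95 ± 0.066 in Cre-positive oil muscle (SD, n = 4 each), and none of the 4 sex-linked genes tested passed limma's test. Bcl6, the floxed gene, averaged 10.12 ± 0.126 in the 5 knockouts, 10.35 ± 0.088 in Cre-negative tamoxifen muscle and 10.43 ± 0.102 in Cre-positive oil muscle (SD, n = 4 in each control group). The labels do not give the deleted exons, so exon counts of Bcl6 test the deletion only in part.

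Few genes passed between the control groups, and 2 of them stood far apart from the rest. Flrt1, which encodes a cell adhesion protein with leucine-rich repeats and a fibronectin domain, was higher in Cre-negative tamoxifen muscle by 2.49 on the log2 scale. Esr1, which encodes estrogen receptor alpha, was lower by 1.32. In all, 123 of 12127 genes tested (1.01%) passed limma's test at an adjusted p below 0.05. Of these, 73 (0.602%) were higher and 50 (0.412%) were lower in Cre-negative tamoxifen muscle. With the rescaled bridge 53 genes passed (0.437%), 37 higher and 16 lower, and all 53 were among the 123. On the bridged log2 scale the median size of the difference was 0.24 among the 123 genes, and 7 of them differed by at least 0.5. The log2 fold changes of the authors' deposited tables, taken as differences between the 2 tables, had the same sign for all 123 genes and were larger in size for 122, with a median size of 0.43 and 47 genes of at least 0.5. The libraries of the groups did not overlap for all 123 genes, which belong to 767 (6.32%) without overlap among all genes tested. Leaving out 1 library moved the count by over 1.5 times in 4 cases: 60 genes passed without Cre-negative P1898, 56 without P1899, 67 without oil P1904 and 51 without oil P1905.

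**Figure D1:**
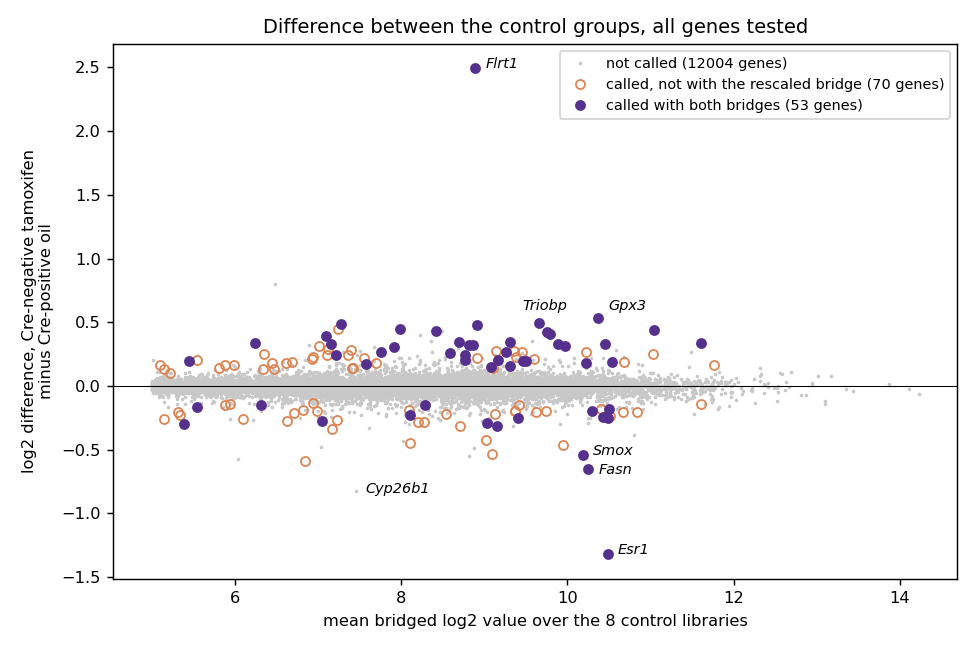
Log2 difference, Cre-negative tamoxifen minus Cre-positive oil (vertical axis), against the mean bridged log2 value over the 8 control libraries (horizontal axis), for 12127 genes. Filled points are the 53 genes called with both bridges and open points the 70 called with the first bridge alone; Flrt1 at 2.49 and Esr1 at -1.32 lie far from the others.

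Esr1 lies on chromosome 10 (chr10:4611989-5005633, plus strand, mm10), and Flrt1 on chromosome 19 (chr19:7092011-7105729, minus strand) inside the gene Macrod1 (chr19:7056768-7198062, plus strand). Promoters of Esr1 are shown for its large difference, and those of the called genes Otub1 and Mark2 for their place near Flrt1. The RefSeq promoters used hold no entry for Flrt1, and no promoter of Pla2g16, another called neighbour, is shown. Another Mark2 promoter, at the gene's annotated start (chr19:7341811-7342110), is not shown either. RefSeq (build GRCm38.p6) gives the promoters shown as 300 bases each, from 250 before to 50 after a start. Capitals mark TTCTAGGAA, the reverse complement of the BCL6 consensus TTCCTAGAA, and the other 3 sequences hold neither form.
Esr1, chr10:4611739-4612038, plus strand: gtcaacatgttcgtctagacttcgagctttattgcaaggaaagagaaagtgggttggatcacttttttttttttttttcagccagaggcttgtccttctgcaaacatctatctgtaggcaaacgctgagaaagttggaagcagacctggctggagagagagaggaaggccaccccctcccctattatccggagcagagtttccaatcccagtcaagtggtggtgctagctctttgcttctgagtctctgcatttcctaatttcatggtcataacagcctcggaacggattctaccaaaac
Esr1, chr10:4709908-4710207, plus strand: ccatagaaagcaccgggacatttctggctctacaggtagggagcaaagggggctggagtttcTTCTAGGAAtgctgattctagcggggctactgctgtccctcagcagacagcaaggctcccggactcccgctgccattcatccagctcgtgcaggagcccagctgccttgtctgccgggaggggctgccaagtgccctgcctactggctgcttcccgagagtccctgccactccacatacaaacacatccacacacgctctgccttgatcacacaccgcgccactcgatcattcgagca
Otub1, chr19:7206235-7206534, minus strand: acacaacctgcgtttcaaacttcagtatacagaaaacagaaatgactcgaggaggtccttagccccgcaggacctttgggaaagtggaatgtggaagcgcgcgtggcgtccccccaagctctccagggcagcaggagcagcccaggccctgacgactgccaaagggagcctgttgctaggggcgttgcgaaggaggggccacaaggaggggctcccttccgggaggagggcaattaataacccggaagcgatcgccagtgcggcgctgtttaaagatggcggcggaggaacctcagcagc
Mark2, chr19:7295398-7295697, minus strand: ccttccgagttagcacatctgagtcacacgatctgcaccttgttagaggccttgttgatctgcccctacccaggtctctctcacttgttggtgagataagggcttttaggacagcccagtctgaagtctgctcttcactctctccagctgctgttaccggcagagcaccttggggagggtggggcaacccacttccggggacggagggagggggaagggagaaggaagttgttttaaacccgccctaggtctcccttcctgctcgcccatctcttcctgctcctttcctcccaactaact

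TTCCTAGAA, searched on both strands, was in 0.411% of the 32851 promoters of the table. That table holds 123 promoters for 96 of the called genes, so some called genes have several and others none. Of these 123 promoters 1 held the consensus, the second Esr1 promoter shown. The authors' BCL6 peak list, from 1 library, has a peak over that promoter with an authors' peak score of 18.4. A match describes these letters only and is not a measured site.

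Flrt1 had bridged values of 10.21, 10.22, 10.26, 10.34 and 10.28 in knockouts, 10.24, 10.17, 10.03 and 10.11 in Cre-negative tamoxifen muscle, and 7.56, 7.62, 7.61 and 7.80 in Cre-positive oil muscle. Both groups given tamoxifen were high, and every oil library was low. The difference between the controls was 2.49 (SE 0.056, limma adjusted p = 1.73e-09, n = 4 each), and it ran from 2.46 to 2.86 over the 25 alternatives with a test per gene. The log2 fold changes of the authors' deposited tables differ by 3.59, more than the transformed values. Flrt1 and Macrod1, the gene around it on the other strand, were counted with tags of both strands. Macrod1, a mitochondrial enzyme that removes ADP-ribose, averaged 9.41 ± 0.063 in Cre-negative tamoxifen muscle and 9.36 ± 0.019 in Cre-positive oil muscle (SD, n = 4 each), and its difference of 0.04 did not pass (limma adjusted p = 0.684).

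Esr1 had bridged values of 11.10, 11.12, 11.18, 11.20 and 11.21 in knockouts, 9.64, 9.88, 9.90 and 9.86 in Cre-negative tamoxifen muscle, and 11.07, 11.18, 11.12 and 11.22 in Cre-positive oil muscle. All 9 Cre-positive libraries were high and the 4 Cre-negative ones low. The difference between the controls was -1.32 (SE 0.055, limma adjusted p = 6.15e-07, n = 4 each), with a range of -1.51 to -1.26 over the 25 alternatives with a test per gene, and the authors' deposited tables give -1.69. Cre-negative P1898 stood below the others of its group. Exon tags of Esr1 do not separate the endogenous transcript from a transgene that holds estrogen receptor sequence, and the part of the transgene was not tested.

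A second set of Cre-positive mice, the RiboTag animals, was given tamoxifen with and without BCL6 (4 knockouts and 4 controls). Their mRNA tables hold counts over whole genes, so levels are not on the scale above. Flrt1 had 1.00 ± 0.688 CPM in RiboTag knockouts and 1.94 ± 0.387 CPM in RiboTag controls (SD, n = 4 each), from 3 to 26 counts a library. Esr1 had 569 ± 46.5 CPM in RiboTag knockouts and 546 ± 50.7 CPM in RiboTag controls. Flrt1 was thus near the low end of detection in these tamoxifen-treated Cre-positive mice, while Macrod1 had 243 ± 31.3 CPM in RiboTag knockouts and 246 ± 22.3 CPM in RiboTag controls. Genes differ in length, and CPM over a whole gene is not a level per length.

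**Figure D2:**
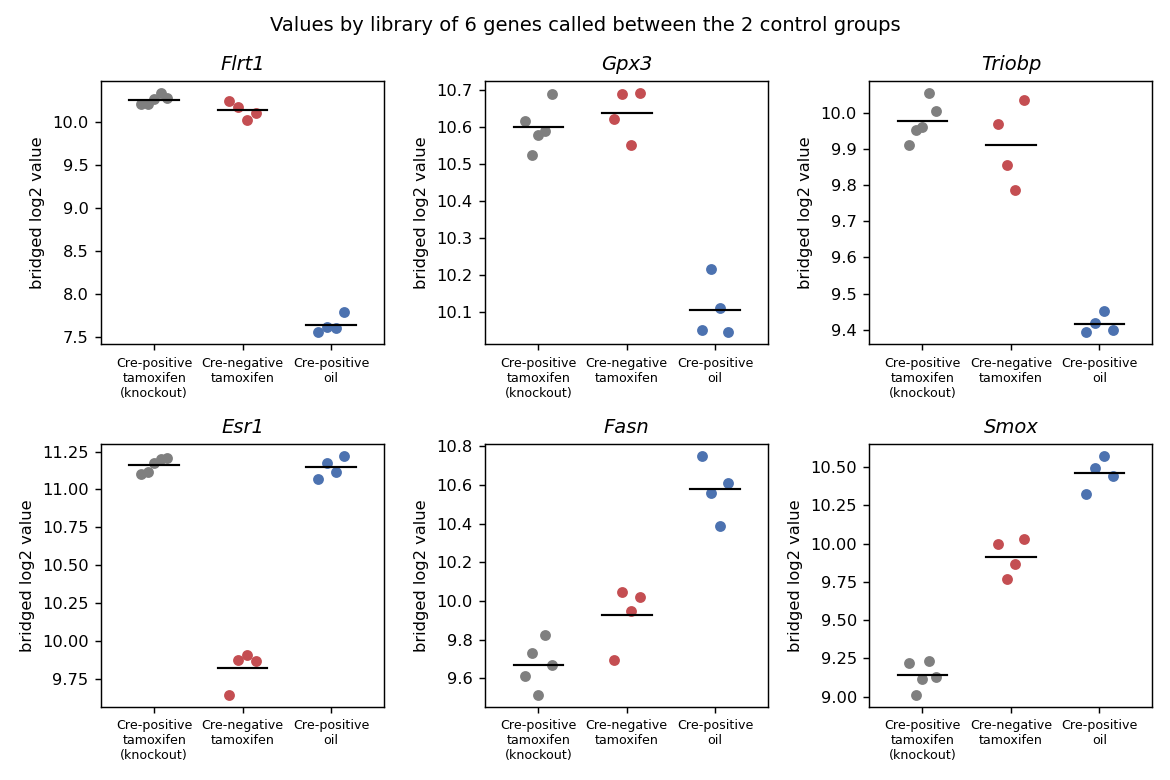
Bridged log2 values (vertical axis, not starting at 0) of 6 called genes in each library of the knockouts, the Cre-negative tamoxifen group and the Cre-positive oil group; points are libraries and lines are means. Flrt1 was high in both tamoxifen groups, Esr1 was high in both Cre-positive groups, and Fasn and Smox in Cre-negative tamoxifen muscle stood below the oil libraries.

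Some tested neighbours of Flrt1 were called as well. Within 0.5 Mb of the start of Flrt1 lay 25 other tested genes, of which 3 (12%) passed with both bridges, against 1.01% of all genes. They were singled out after their values were seen. Otub1, a deubiquitinase, was higher in Cre-negative tamoxifen muscle by 0.20 (SE 0.030, limma adjusted p = 0.0110), and Mark2, a kinase that acts on microtubule-associated proteins, by 0.31 (SE 0.047, limma adjusted p = 0.0134). Otub1 values were 9.25, 9.29, 9.20 and 9.31 in Cre-negative tamoxifen muscle and 9.07, 9.03, 9.04 and 9.09 in Cre-positive oil muscle. Pla2g16, a phospholipase abundant in fat tissue, was lower by 0.25 (SE 0.025, limma adjusted p = 0.0011), with 10.37, 10.31, 10.38 and 10.38 in Cre-negative tamoxifen muscle and 10.62, 10.64, 10.60 and 10.60 in Cre-positive oil muscle. The 3 genes thus did not share a direction, and each kept its call in all 8 fits that left out 1 library. Knockouts averaged 9.26 for Otub1 and 10.21 for Mark2, close to the other group given tamoxifen at 9.26 and 10.13. For Pla2g16 they averaged 10.09, below both Cre-negative tamoxifen muscle at 10.36 and Cre-positive oil muscle at 10.62. On chromosome 19 as a whole 11 of 439 tested genes (2.51%) were called, against 0.257% to 1.51% on the other assembled chromosomes with a called gene. These 11 include Flrt1, Otub1, Mark2 and Pla2g16, so the share is not separate from the count around Flrt1. Of all called genes, 29 had another called gene within 0.5 Mb, and Flrt1, Otub1, Mark2 and Pla2g16 had the highest number, 3 each.

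**Figure D3:**
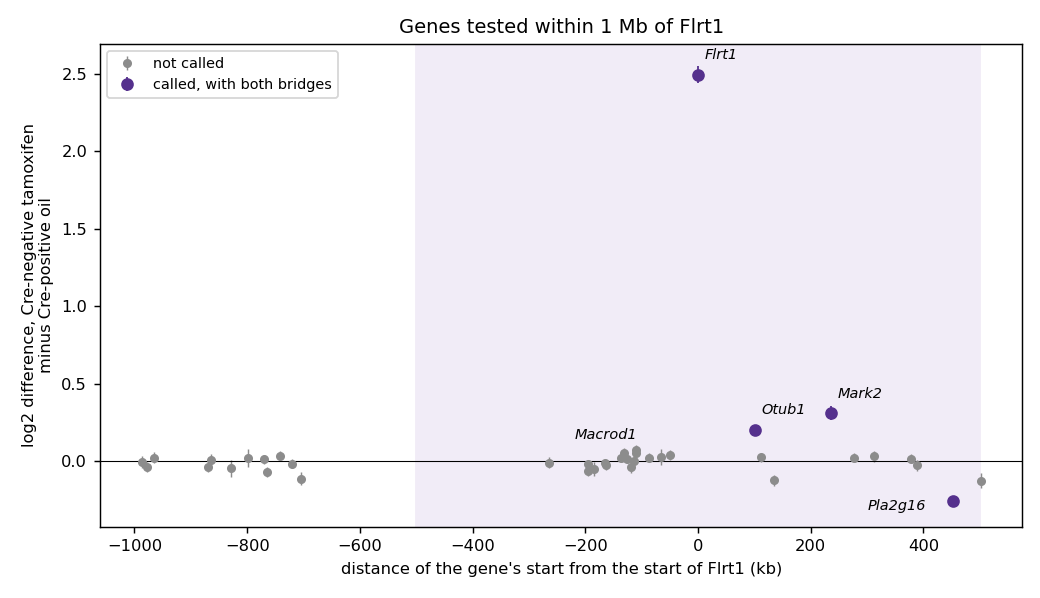
Log2 difference, Cre-negative tamoxifen minus Cre-positive oil (vertical axis, bars are standard errors), against the distance of each tested gene's start from the start of Flrt1 (kb). The shaded 0.5 Mb to each side holds the called genes Otub1, Mark2 and Pla2g16, and Macrod1 lies near 0.

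Among genes at or above the median level, Gpx3 and Triobp had the largest rises after Flrt1. Gpx3, a secreted glutathione peroxidase, had 10.62, 10.69, 10.55 and 10.69 in Cre-negative tamoxifen muscle and 10.05, 10.22, 10.11 and 10.05 in Cre-positive oil muscle. Its difference was 0.53 (SE 0.044, limma adjusted p = 0.000435), and no library of the groups overlapped. Triobp, which bundles actin filaments, had 9.97, 9.86, 9.79 and 10.03 in Cre-negative tamoxifen muscle and 9.39, 9.42, 9.45 and 9.40 in Cre-positive oil muscle, a difference of 0.50 (SE 0.047, limma adjusted p = 0.000839). Knockouts averaged 10.60 for Gpx3 and 9.98 for Triobp, so both groups given tamoxifen were high for these genes too.

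Further genes were higher in Cre-negative tamoxifen muscle by smaller amounts, all called with both bridges. Cyp4f39, a cytochrome P450 that hydroxylates fatty acids, differed by 0.48. Pcx, pyruvate carboxylase, differed by 0.44, and Fbp2, the muscle fructose-bisphosphatase, by 0.35. Pcx and Fbp2 encode enzymes of gluconeogenesis. Sbk2, a kinase gene, differed by 0.43 and Spns2, an exporter of sphingosine-1-phosphate, by 0.42. The oxidative-muscle and fat enzyme gene Car3, a carbonic anhydrase, differed by 0.34, the histone H4 methyltransferase gene Kmt5a by 0.33 and the potassium channel gene Kcnq5 by 0.32. Fbp2 had 8.85, 8.87, 8.83 and 8.90 in Cre-negative tamoxifen muscle and 8.52, 8.58, 8.49 and 8.49 in Cre-positive oil muscle (limma adjusted p = 0.000435). Zfp710 (0.35) and 9530091C08Rik (0.41) were also among the 12 largest rises at or above the median level. With limma, Pcx lost its call without Cre-negative P1899 (adjusted p = 0.052), Car3 without Cre-negative P1906 or oil P1904 (up to 0.0611) and 9530091C08Rik without Cre-negative P1899 or oil P1905 (up to 0.063). Zfp710 lost its call in 6 of the 8 fits that left out 1 library (limma adjusted p up to 0.0708).

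The genes lower in Cre-negative tamoxifen muscle were led, after Esr1, by Fasn, the fatty acid synthase. Fasn had 9.61, 9.73, 9.51, 9.82 and 9.67 in knockouts, 9.70, 10.04, 9.95 and 10.02 in Cre-negative tamoxifen muscle, and 10.75, 10.56, 10.39 and 10.61 in Cre-positive oil muscle. It fell by 0.65 between the controls (SE 0.084, limma adjusted p = 0.00603), and both groups given tamoxifen lay below every oil library. Smox, the oxidase that turns spermine into spermidine, had 9.22, 9.01, 9.12, 9.23 and 9.13 in knockouts, 10.00, 9.77, 9.87 and 10.03 in Cre-negative tamoxifen muscle, and 10.32, 10.50, 10.58 and 10.45 in Cre-positive oil muscle. It fell by 0.54 between the controls (SE 0.063, limma adjusted p = 0.00282), and the 3 groups did not overlap.

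Several further lower genes depended on how the tables were bridged. Rasd2, a small GTPase gene, fell by 0.53 (limma adjusted p = 0.0230) but by 0.45 with the rescaled bridge (adjusted p = 0.0952). Kcng4, a modifying potassium channel subunit, fell by 0.47 (limma adjusted p = 0.0270) but by 0.39 with the rescaled bridge (adjusted p = 0.109). The receptor kinase gene Grk3 and Gdap1, a gene of mitochondrial shape, likewise lost their calls with it (adjusted p = 0.116 and 0.109). Tecpr2, an autophagy gene, fell by 0.32, the integrin subunit gene Itga4 by 0.29 and the cAMP phosphodiesterase gene Pde7b by 0.26, and these 3 passed with both bridges. When 1 library was left out in turn, Rasd2, Kcng4 and Gdap1 lost their calls in 4 of 8 fits and Grk3 in 7, with limma adjusted p values up to 0.0995, while Tecpr2, Itga4 and Pde7b kept theirs in all 8.

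Fatty acid synthesis was the metabolic list with the most called genes. Of its 22 members tested, 0 were higher and 3 lower, where 0.602% of all genes tested were higher and 0.412% lower. Its median difference was -0.10, against 0.0001 for all genes tested. The called members were Fasn, Acaca, which makes the malonyl-CoA that Fasn uses, and Srebf1, whose product activates lipogenic genes. Acaca had 7.99, 8.07, 8.09 and 8.10 in Cre-negative tamoxifen muscle and 8.33, 8.48, 8.20 and 8.38 in Cre-positive oil muscle (-0.29, limma adjusted p = 0.0311, and adjusted p = 0.0666 with the rescaled bridge). Srebf1 had 10.16, 10.14, 10.21 and 10.28 in Cre-negative tamoxifen muscle and 10.40, 10.37, 10.40 and 10.40 in Cre-positive oil muscle (-0.19, limma adjusted p = 0.0184). Fasn kept its call in all 8 fits that left out 1 library (limma adjusted p up to 0.026). Acaca lost it in 7 of them (up to 0.0879), and Srebf1 without Cre-negative P1898 or P1899 or oil P1905 (up to 0.0686). In total 4 of the 22 members had a difference above 0, against 6070 of all 12127 genes tested, and this count was not tested. Scd1 (-0.38, limma adjusted p = 0.138) and Acly (-0.21, limma adjusted p = 0.182), named here after their values were seen, did not pass. Cholesterol synthesis, which the sister factor SREBP2 controls, had 0 of 22 members called and a median of -0.0005. Fatty acid oxidation had 0 of 34 called and a median of -0.03, with 4 of the 34 above 0. The calls of both lists stand against 1.01% of all genes tested. Of the adipocyte markers 0 of 9 tested were called, with Ucp1 below the expression limit, and their summed level (2 to the power of the bridged value) was 4365 to 4833 in Cre-negative tamoxifen muscle and 4429 to 5141 in Cre-positive oil muscle. The part of fat cells in the lower lipogenic genes was not tested.

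**Figure D4:**
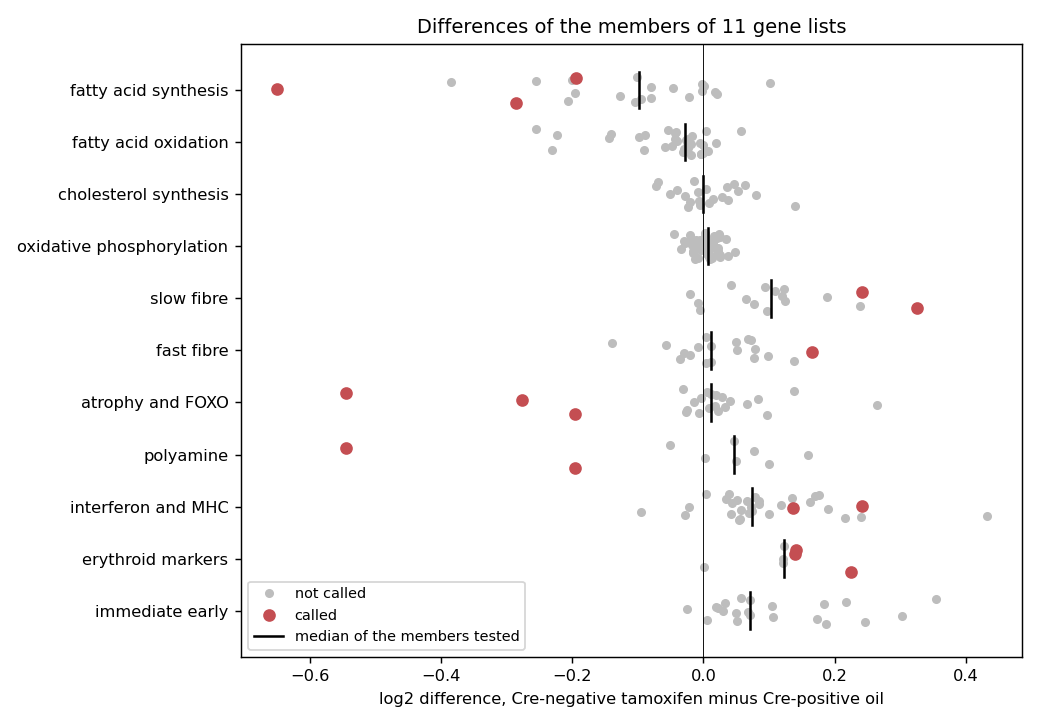
Log2 difference, Cre-negative tamoxifen minus Cre-positive oil (horizontal axis), for the tested members of 11 gene lists; red points are called genes and black lines are list medians. Fatty acid synthesis has a median of -0.10 and the slow-fibre list one of 0.10, while the oxidative phosphorylation members lie close to 0.

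Each list of estrogen biology held 1 called gene. Of 15 tested members of the list of estrogen receptors and their coregulators, Esr1 alone was called, against 1.01% of all genes tested. Of 14 tested genes known to respond to estrogen in other tissues, 1 was called, against 1.01% of all genes tested. It was Xbp1, a transcription factor of the unfolded protein response, higher by 0.19 in Cre-negative tamoxifen muscle (SE 0.033, limma adjusted p = 0.0230). Xbp1 values were 9.62, 9.62, 9.53 and 9.64 in Cre-negative tamoxifen muscle and 9.40, 9.42, 9.36 and 9.47 in Cre-positive oil muscle. Xbp1 lost its call in 6 of the 8 fits that left out 1 library (limma adjusted p up to 0.0803). The median of the estrogen-responsive list was 0.0071, and its lowest difference was that of Cyp26b1 at -0.82, which did not pass (limma adjusted p = 0.304). Of the p53 and DNA damage list 0 of 19 tested members were called, and of the drug-metabolism and oxidative-response list 0 of 16. Both stand against 1.01% of all genes tested.

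Most muscle structure and energy genes were not called between the controls, as was true of all genes tested, of which 1.01% were called. Of the 16 slow-fibre genes 2 were higher and 0 lower, against 0.602% and 0.412% of all genes tested. The slow-fibre median was 0.10, and 13 of the 16 had a difference above 0, against 6070 of all 12127 genes tested. The 2 called genes were Casq2, which stores calcium in the sarcoplasmic reticulum (0.32, limma adjusted p = 0.0180), and Sln, a small inhibitor of the calcium pump (0.24, limma adjusted p = 0.0404). Casq2 kept its call with the rescaled bridge (adjusted p = 0.0458) and Sln did not (adjusted p = 0.429). Leaving out Cre-negative P1898, oil P1904 or oil P1905 ended the call of Casq2 (limma adjusted p up to 0.0668). Slow myosin Myh7, named after its value was seen, differed by 0.08 and did not pass (limma adjusted p = 0.703). Of 19 fast-fibre genes 1 was higher, against 0.602% of all genes tested. It was the myosin light chain kinase gene Mylk2 (0.17, limma adjusted p = 0.0335), which missed with the rescaled bridge (adjusted p = 0.0561). Sln and Mylk2 lost their calls in 6 and 7 of the 8 fits that left out 1 library (limma adjusted p up to 0.114 and 0.111). Fbp2 was the 1 called gene of 30 in glycolysis and glycogen metabolism, against 1.01% of all genes tested. All 50 tested oxidative phosphorylation genes lay between -0.0455 and 0.0485, and none was called. Of 82 cytosolic ribosomal protein genes none was called, with a median of 0.03.

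Signalling and stress lists were mostly without calls. Of all genes tested 1.01% were called, so lists of this size mostly hold none, and the zeros say little about a list. Growth hormone and IGF1 signalling had 0 of 26 members called, mTORC1 and cap-dependent translation 0 of 19, circadian clock 0 of 19, glucocorticoid targets 0 of 18 and heat shock 0 of 20. Immediate early genes had 0 of 21 called, and their median was 0.07. Of the 21, 20 had a difference above 0, against 6070 of all 12127 genes tested. Of 31 interferon and MHC genes 2 were higher, against 0.602% of all genes tested. Here 28 of the 31 had a difference above 0, and their median was 0.07. Members of a list may vary together within a library, and neither count above 0 was tested. The called genes were the interferon regulatory factor gene Irf7 (0.24, limma adjusted p = 0.0174) and Ifit3 (0.14, limma adjusted p = 0.0348). Ifit3 did not pass with the rescaled bridge (adjusted p = 0.116). Irf7 lost its call without Cre-negative P1899 (limma adjusted p = 0.0515), and Ifit3 in 7 of the 8 fits that left out 1 library (up to 0.109). Of 23 atrophy and FOXO genes 3 were lower, against 0.412% of all genes: Smox, Foxo6 (-0.28, limma adjusted p = 0.0180) and Amd1 (-0.20, limma adjusted p = 0.0335). Foxo6 and Amd1 missed with the rescaled bridge (adjusted p = 0.0687 and 0.104). Amd1 (chr10:40287458-40302188) shares reads with Amd2, which is placed on nearly the same interval (chr10:40287465-40302186) and had nearly the same values. Both count among the 123 called genes. Without oil P1905 Foxo6 missed as well (limma adjusted p = 0.0638), and Amd1 missed in 7 of the 8 fits that left out 1 library (up to 0.103). Amd1 makes the aminopropyl donor for polyamines. Smox and Amd1, both lower, were the 2 called genes of 9 in the polyamine list, against 0.412% of all genes tested.

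None of 9 further genes of growth hormone signalling, muscle mass and BCL6 itself, named by a list made with earlier results known, passed between the controls. Socs2, a feedback inhibitor of growth hormone signalling, had 8.34, 8.72, 8.65 and 8.45 in Cre-negative tamoxifen muscle and 7.98, 8.25, 8.13 and 8.39 in Cre-positive oil muscle, a difference of 0.35 (SE 0.096, limma adjusted p = 0.165). Cish, another such inhibitor, differed by 0.33 (SE 0.253, limma adjusted p = 0.689), with oil library P1905 at 8.18 and the other 3 oil libraries at 9.25 to 9.70. Igf1 differed by -0.09 (SE 0.131), Eif4ebp1, an inhibitor of cap-dependent translation, by 0.17 (SE 0.044), and myostatin (Mstn) by 0.01 (SE 0.026). The ubiquitin ligase genes Fbxo32 (0.26, SE 0.073) and Trim63 (0.14, SE 0.030) had adjusted p values of 0.166 and 0.0731 in limma. Ddit4, a brake on mTORC1, differed by -0.04 (SE 0.137), and Bcl6 by -0.08 (SE 0.054, limma adjusted p = 0.648). With standard errors of this size, small differences in Cish, Igf1 or Ddit4 were not detectable.

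Markers of other cell types showed 1 list with calls. Of the erythroid markers 3 of 7 tested were higher, against 0.602% of all genes: Alas2, the first enzyme of erythroid heme synthesis (0.23, limma adjusted p = 0.0448), and the beta-globin genes Hbb-bs and Hbb-b1 (0.14 each, limma adjusted p = 0.0318 and 0.0324). Hbb-bs (chr7:103826523-103827928) and Hbb-b1 (chr7:103826532-103827929) cover nearly the same interval, share reads and had nearly the same values. They are therefore not separate calls. None of the 3 passed with the rescaled bridge (adjusted p = 0.0674 to 0.0879), and each lost its call in 7 of the 8 fits that left out 1 library (limma adjusted p up to 0.14). The summed level of the erythroid markers, in which both of these entries count, was 1772 to 1875 in Cre-negative tamoxifen muscle and 1703 to 1756 in Cre-positive oil muscle. Epb42 and Slc4a1 were among the markers below the expression limit. No marker was called for endothelial cells (0 of 12), smooth muscle and pericytes (0 of 10), fibroblasts (0 of 12), tendon (0 of 10), macrophages (0 of 12), Schwann cells (0 of 10) or satellite cells (0 of 9). With 1.01% of all genes tested called, marker lists of this size mostly hold no call. Most neutrophil and lymphocyte markers lay below the limit, with 1 tested of each. Muscle fibre markers, 0 of 12 called, summed to 103192 to 108243 in Cre-negative tamoxifen muscle and 104474 to 109050 in Cre-positive oil muscle, the highest sums of the marker lists.

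The knockouts, which share tamoxifen with one control and Cre with the other, were nearer to the tamoxifen control for most called genes, by a margin that depended on the bridge. For 112 of the 123 called genes (91.1%) the knockout mean was nearer to the Cre-negative tamoxifen mean than to the oil mean, as it was for 63.4% of all genes tested. With the rescaled bridge it was nearer for 39 of 53 called genes (73.6%), against 57.8% of all genes. Cre-negative tamoxifen muscle lay between knockouts and oil muscle for 92 of the 123 genes (74.8%, against 52.2% of all genes), and knockouts lay between the controls for 28 (22.8%, against 19.6%). Oil muscle lay between the others for 3 (2.44%, against 28.2%), Esr1 among them. With the rescaled bridge Cre-negative tamoxifen muscle lay between the others for 31 of 53 genes (58.5%, against 47.3% of all genes), knockouts for 19 (35.8%, against 19.6%) and oil muscle for 3 (5.66%, against 33.1%). The knockout libraries are the bridge, so the position is a description with no test. Chrna9, a nicotinic receptor subunit, had 8.76 to 9.02 in knockouts, 7.15 to 7.39 in Cre-negative tamoxifen muscle and 6.91 to 7.04 in Cre-positive oil muscle. Its difference of 0.29 between the controls (limma adjusted p = 0.0195) was 0.17 with the rescaled bridge (adjusted p = 0.285), while the log2 fold changes of the authors' deposited tables differ by 2.76. The call was also lost without Cre-negative P1898 or oil P1905 (limma adjusted p up to 0.0686).

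**Figure D5:**
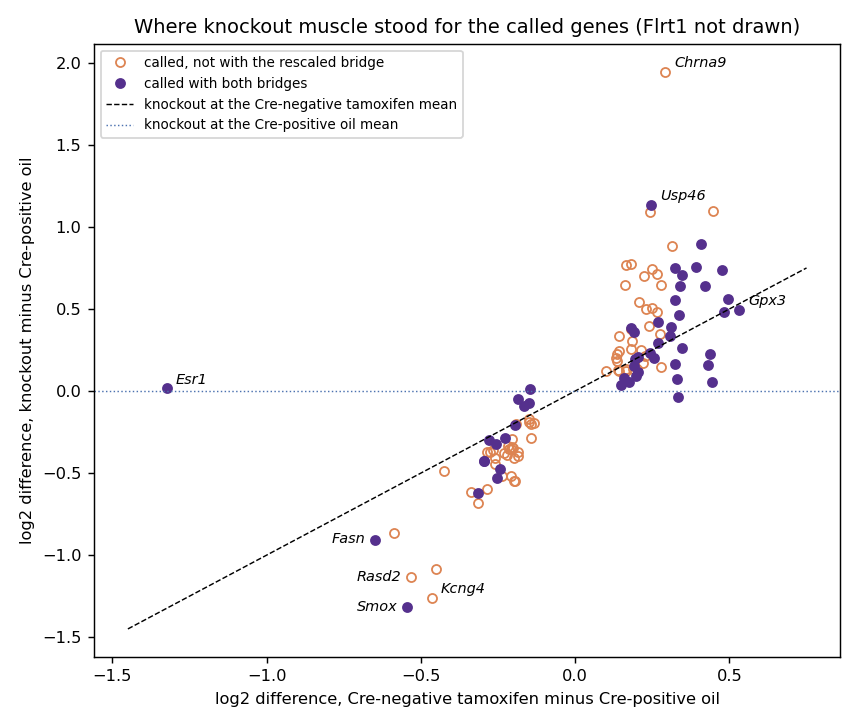
Log2 difference of knockouts minus Cre-positive oil muscle (vertical axis) against that of Cre-negative tamoxifen minus Cre-positive oil muscle (horizontal axis) for the called genes other than Flrt1; filled points are called with both bridges. Both axes share the oil libraries, and by the bridge the vertical value is itself a term of the horizontal one. Esr1 lies on the dotted line where knockouts equal oil muscle, and Gpx3 near the dashed line where they equal Cre-negative tamoxifen muscle.

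BCL6 peaks near called genes were counted beside those near all genes, with no test. A peak of the authors' list was within 1000 bp of a start for 16 of the 123 called genes (13%), against 11.9% of all genes tested. With the rescaled bridge it was 10 of 53 (18.9%). By direction, with the first bridge, 13 of the 73 higher genes (17.8%) and 3 of the 50 lower genes (6.0%) had one. The authors' peak score was 121.3 at Casq2, 84.5 at Fbp2, 47.8 at Foxo6 and 18.4 at Xbp1. Flrt1 had none within that distance, and the peak that the authors' annotation assigns to it lay -47662 bp from its start with a score of 19.6.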

How the data were processed

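Poly(A) RNA of quadriceps was analysed from 4 Cre-negative tamoxifen, 4 Cre-positive oil and 5 knockout libraries, grouped by the labels. The submitters' processing notes name STAR 2.4.0, Bowtie 1.2, HOMER, DESeq2 1.14.1 and the build mm10, with no file given for any of them. The authors counted tags in exons on both strands and, per the file headers, deposited log2 values after an unnamed transform, with a log2 fold change, p-value and adjusted p-value per gene. Per the file headers, the RiboTag mRNA table holds deposited counts of tags over whole genes with at most 5 tags per position, turned here into CPM with the sum over genes as the total. The BCL6 peak list holds a deposited peak score from 1 library on a scale that is not named.

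Both poly(A) tables list the same 24940 genes, and the 12127 with a mean log2 value of at least 5 over the 8 controls were tested. Bridged values were fitted with limma 3.58.1 (trended variance, two-sided), and called genes had a Benjamini-Hochberg adjusted p under 0.05 over all genes tested. The rescaled bridge and the use of the authors' fold changes were chosen after seeing the data. The genes named are 12 fixed genes, the 12 called genes that rose most and the 12 that fell most at or above the median level, up to 3 called members of each list and the sex-linked genes, and others are marked as chosen after their values were seen. Some genes that this rule or a list holds are not reported here. The members, gene lists and fixed genes were chosen with earlier results of these data known. The scripts were tested on simulated data. Totals are whole-library tags, and the depth behind a single log2 value is not given. Scripts ran in R 4.3.3 (package data.table, version 1.17.8) and Python 3.11.15, with matplotlib 3.10.9, scipy 1.17.1, pandas 2.3.3 and numpy 2.4.6. Promoters come from RefSeq (GRCm38.p6). The H3K27ac, footprint and nascent RNA tables hold no Cre-positive oil library and were not used here.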

Additional observations from a re-analysis of the deposited data

Results flagged for a closer look

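Among 166 sets of 4 libraries, which are the 83 genes looked at in both control groups, 9 had 1 library far from the nearest of the others relative to the whole range. Chance flags about 1 in 20 such sets. In Cre-negative tamoxifen muscle, Esr1 was lowest in P1898 at 9.64, with the next library at 9.86, and Foxo6 was lowest in P1899 at 6.37, with the next at 6.53. Hspb2, a small heat shock protein gene, was lowest in Cre-negative P1906 at 8.92. Fbxo32 (11.67) and Gdap1 (8.21) were highest in Cre-negative P1909, the noncoding RNA gene Mirg in P1899 at 6.57 and Egr2 in P1898 at 5.59. In Cre-positive oil muscle, Ddit4 was highest in P1910 at 7.79 and Srebf1 was lowest in P1904 at 10.37, where the next oil library stood at 10.40. Every Esr1 value of the Cre-negative group, P1898 included, lay below every Cre-positive value.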

How the results depend on the processing

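No paired analysis was possible because the control groups share no replicate number. The count of called genes was 123. It was 1470 with 1 constant per table in place of the bridge and 1731 with no bridge, so it rests on the knockout libraries that link the tables. It was 53 with the rescaled bridge, 50 without the expression limit, 200 with all 13 libraries in 1 fit and 7 with a difference of at least 0.5. Without 1 control library it ran from 51 to 108. Other settings (median bridge, limits of 3 or 7, other variance priors, quantile or median scaling, and 1 knockout library left out of the bridge, with up to 125 genes) gave 85 to 136. Flrt1, Esr1, Gpx3, Triobp, Cyp4f39, Sbk2, Spns2, Fbp2, Kmt5a, Fasn, Smox, Tecpr2, Itga4, Pde7b, Pla2g16, Kcnq5 and Otub1 kept direction and call in all 25 alternatives with a test per gene, and of these only Flrt1, Esr1, Gpx3, Fasn and Smox also differed by at least 0.5. Sign changes were seen for genes that did not pass. Mstn (0.01) was -0.001 with 1 constant per table, -0.021 with no bridge and -0.008 with the rescaled bridge, Igf1 (-0.09) was 0.0018 with the rescaled bridge, and Ddx3y was -0.0072 with no bridge. Without 1 control library Mstn ran from -0.0081 to 0.0202, Ddit4 from -0.1608 to 0.0853, Mmp9 from -0.0039 to 0.0661, Ddx3y from -0.0064 to 0.041 and Kdm5d from -0.0021 to 0.0342. The cause of these shifts was not tested.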

Other observations

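Cyp26b1, which breaks down retinoic acid and belongs to the estrogen-responsive list, had the largest difference among genes that did not pass and was chosen after its values were seen. It had 7.14, 7.03, 6.94 and 7.05 in Cre-negative tamoxifen muscle, against 8.41, 7.42, 8.61 and 7.02 in Cre-positive oil muscle. The oil libraries spread widely (SD 0.766), oil P1910 lay within the Cre-negative range, and the difference of -0.82 did not pass (SE 0.288, limma adjusted p = 0.304). The 5 knockout libraries stood at 7.06 to 7.36.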
